A study of Arabidopsis thaliana with 3 samples.

Results

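The subject here is the transcriptome of whole wild-type Arabidopsis thaliana seedlings after 45 min of light enriched in far-red, set against seedlings kept in white light. The method was PEAT, the paired-end analysis of start sites, in which sequenced read pairs mark the 5′ ends of RNA molecules. The seedlings were 10 days old, of the Col-0 accession and without any introduced allele. The first group received 45 min of far-red-enriched light and the other stayed in white light, and a library made after 90 min is given beside them where it shows how a gene went on. The series was made for work on the microprotein of the shade gene ATHB2, and it describes CRISPR deletion, knockout and 35S overexpression lines, none of which is in these libraries. Each condition was 1 library, so no difference below has a replicate check, and condition and library cannot be told apart.

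Genes entered the comparison when they had 100 or more reads in at least one of the 2 libraries, counting 1 transcript per gene. Of the 6814 genes in the deposited table, 5309 passed (77.9%), and 1505 had fewer reads in both. Levels are RPM, reads scaled to a total of 1000000 for each library over all 6814 genes, and the unscaled totals were 4373900 reads at 45 min and 3440656 in white light. A gene was said to have risen or fallen when its log2 ratio, with 1 RPM added to both levels, reached 1 or -1, which is 2-fold. Each fold change is given as the plain ratio of RPM with its exact binomial 95% interval, which covers counting error only. PEAT reads were amplified molecules without identifiers, so the true error may be larger than these intervals.

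Plants sense neighbours through phytochromes, photoreceptors that switch between a red-absorbing and a far-red-absorbing form. Light filtered by leaves is poor in red, which lowers the share of active phytochrome B and releases the PIF transcription factors, bHLH proteins that bind promoters of growth genes. The resulting shade avoidance response includes the fast induction of the HD-ZIP II factor ATHB2 and of the bHLH genes PIL1 and HFR1, followed by new auxin synthesis and elongation of stems and petioles.

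After 45 min, 590 genes had risen by 2-fold or more and 523 had fallen, or 11.1% and 9.85% of the genes compared. A 4-fold difference was reached upwards by 161 genes (3.03%) and downwards by 79 (1.49%). The 6 shade genes of the literature with enough reads stood among the risers, with ATHB2 16.1-fold higher. Nuclear photosynthesis genes, the largest block of reads, stayed within 2-fold as a group. The median gene had a log2 ratio of -0.04, and the middle 50% of genes lay between -0.52 and 0.48. The extremes reached 5.07 upwards and -5.12 downwards.

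**Figure D1:**
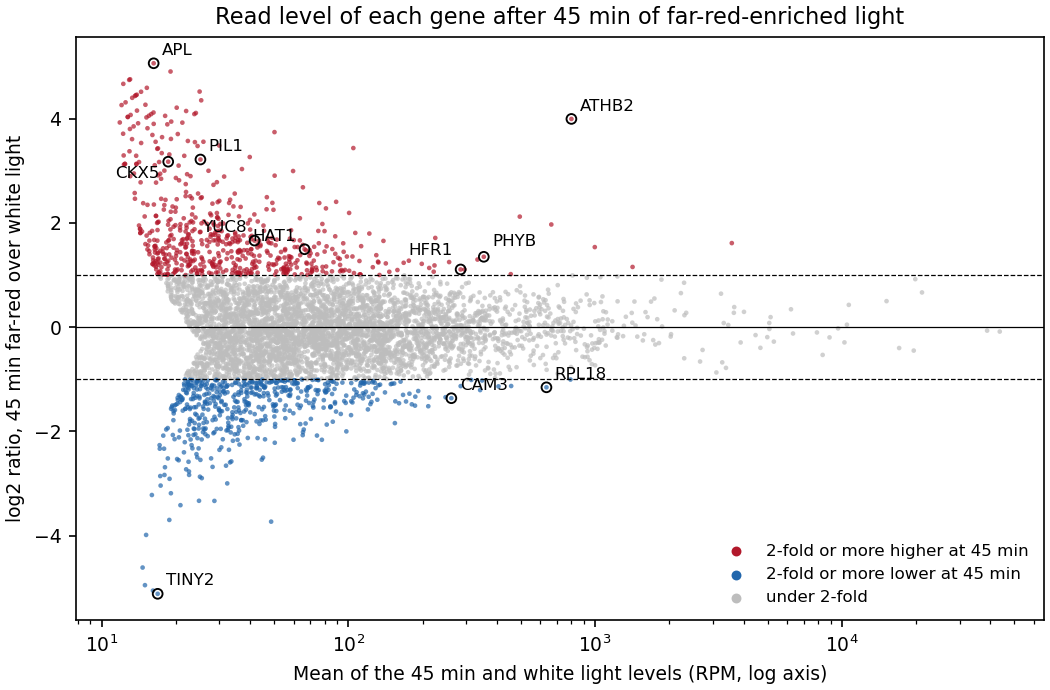
Each point is 1 of 5309 genes, with the mean of its 45 min and white light levels on the x axis (RPM, log axis) and its log2 ratio, 45 min over white light, on the y axis. Dashed lines mark 2-fold, and circled genes are named. Large ratios were mostly those of genes with low levels, and ATHB2 stood apart among genes near 1000 RPM, 16.1-fold higher at 45 min.

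How often a gene passed 2-fold depended on its depth. Among 1758 genes whose better library held 100 to below 200 reads, 303 (17.2%) were higher and 282 lower, and their median absolute difference was 1.63-fold. Among 603 genes with 1000 to below 5000 reads, 2.49% were higher and 1.99% lower, with a median absolute difference of 1.23-fold. Of the 81 genes with 5000 reads or more, 4 rose and 0 fell. At the threshold itself, the 246 genes with 100 to 109 reads had a median log2 ratio of 0.03, and 43.1% of them differed by 2-fold in either direction. The 241 genes just outside, with 90 to 99 reads, had a median of 0.08 and a share of 36.5%. The counting interval lay wholly beyond 2-fold for 378 of the 590 risers and for 299 of the 523 genes that fell. It left out a ratio of 1 for all 590 and all 523, but also for 4003 of the 5309 genes compared (75.4%). An interval off 1 therefore does not set a gene apart.

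**Figure D2:**
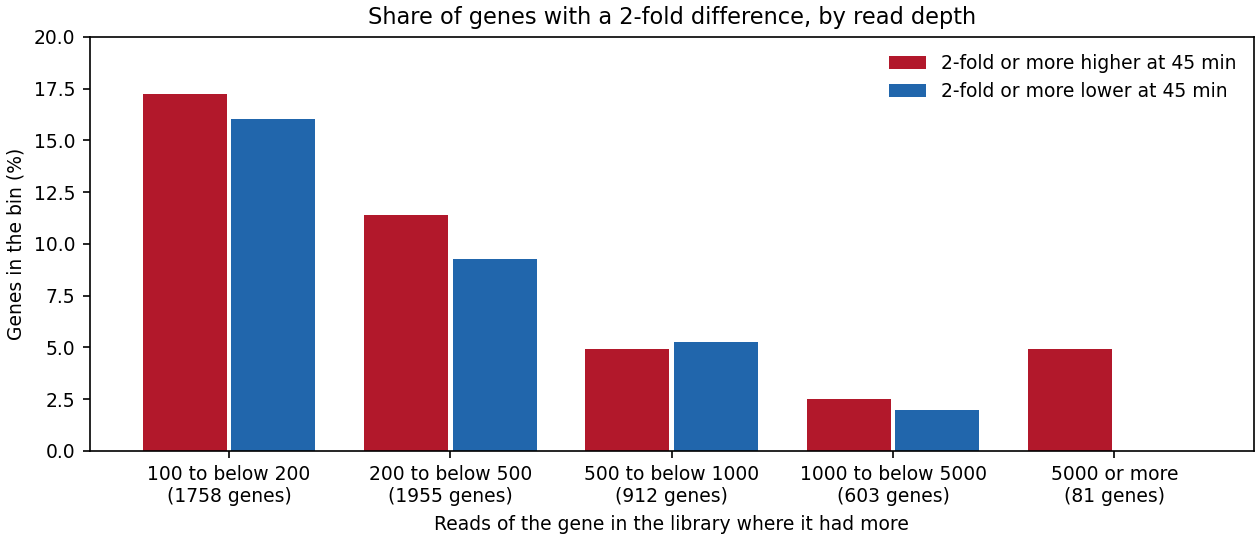
Bars give the share of genes (%) that were 2-fold or more higher (red) or lower (blue) at 45 min than in white light, by the number of reads in the library where the gene had more. The share higher was 17.2% among genes with 100 to below 200 reads and 2.49% among genes with 1000 to below 5000 reads.

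Of 25 shade-induced genes collected from the literature, 8 were in the table and 6 had enough reads. All 6 rose, beside 11.1% of all genes compared. PIL1, CKX5 and YUC8 passed the minimum only through the 45 min library, with 14, 10 and 67 reads in white light. For these genes the minimum itself selected a high 45 min count. The 6 genes are named for their response in other experiments, and the list was chosen with earlier results of these data known. Their median log2 ratio was 2.42, beside -0.04 for all genes. With no minimum, which adds PIL2 and GA20OX2, the median of the list was 1.58, beside -0.03 for all genes. ATHB2 (AT4G16780), a homeodomain leucine zipper factor that promotes elongation in shade, had 6600 reads at 45 min, against 322 in white light. That is 1509 RPM at 45 min, against 93.6 RPM in white light, a 16.1-fold rise (14.4 to 18.1). The 90 min library held 659 RPM, so among the 3 libraries ATHB2 was highest at 45 min. It ranked 30 among all log2 ratios, and every gene above it had fewer reads.

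HAT1 (AT4G17460), a close relative of ATHB2 in the same HD-ZIP II class, had 98.5 RPM at 45 min, against 34.3 RPM in white light, a 2.87-fold rise (2.34 to 3.55). At 90 min it had 33.9 RPM, close to its white light level. PIL1 (AT2G46970), a bHLH gene used as a marker of low red to far-red light, had 202 reads at 45 min, against 14 in white light, an 11.4-fold rise (6.61 to 21.1). HFR1 (AT1G02340) encodes an atypical bHLH protein that restrains PIF activity and so limits the response. HFR1 stood at 390 RPM at 45 min, against 180 RPM in white light, a 2.16-fold rise (1.97 to 2.37). Both bHLH genes were higher still at 90 min, with 74.4 RPM for PIL1 and 763 RPM for HFR1.

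The enzymes of the shade list rose as well. YUC8 (AT4G28720) encodes a flavin monooxygenase of auxin synthesis, and it had 63.8 RPM at 45 min, against 19.5 RPM in white light, a 3.28-fold rise (2.50 to 4.34). Its 90 min level was 187 RPM. The log2 ratio of YUC8 was 1.66 by all reads, 2.66 by the first window and 3.74 by both kinds of window, and white light held only 6 first-window and 1 second-window reads, so the size of the rise depended on the reads counted. CKX5 (AT1G75450) encodes a cytokinin oxidase that degrades cytokinin, and it had 150 reads at 45 min, against 10 in white light, an 11.8-fold rise (6.24 to 25.1). CKX5 overlaps 3 other annotated genes, so some of these reads could belong to a neighbour. PIL2 and GA20OX2 stayed below the minimum, with 13 and 31 reads at 45 min, against 38 and 27 in white light.

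Each entry of the table also splits reads into a first start window and second, downstream windows, which gives a look inside the level. ATHB2 rose in both, with 3604 first-window reads at 45 min, against 152 in white light, and 2650 second-window reads at 45 min, against 145 in white light. HFR1 differed between its windows. Its first window held 957 reads at 45 min, against 514 in white light, a log2 ratio of 0.65, while its second windows held 307 at 45 min, against 10 in white light. By its first window alone HFR1 thus did not reach 2-fold. Over all 590 risers, 259 were 2-fold higher in both kinds of window, 200 only in the first, 115 only in the second windows and 16 in neither. In 50 of the risers one kind of window was 2-fold lower. Among the 523 genes that fell, 277 were 2-fold lower in both, 117 only in the first, 122 only in the second windows and 7 in neither, and in 48 of them one kind of window was 2-fold higher. Over all gene lists, 33 members differed by 2-fold, of which 8 did not reach it by first-window reads, namely HFR1, ROT3, BAS1, GI, PORA, VSP1, HSC70-3 and CER1. The same holds for BEE3, RD26 and AT1G73530, described further on, with log2 ratios of 0.32, 0.45 and 0.59.

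**Figure D3:**
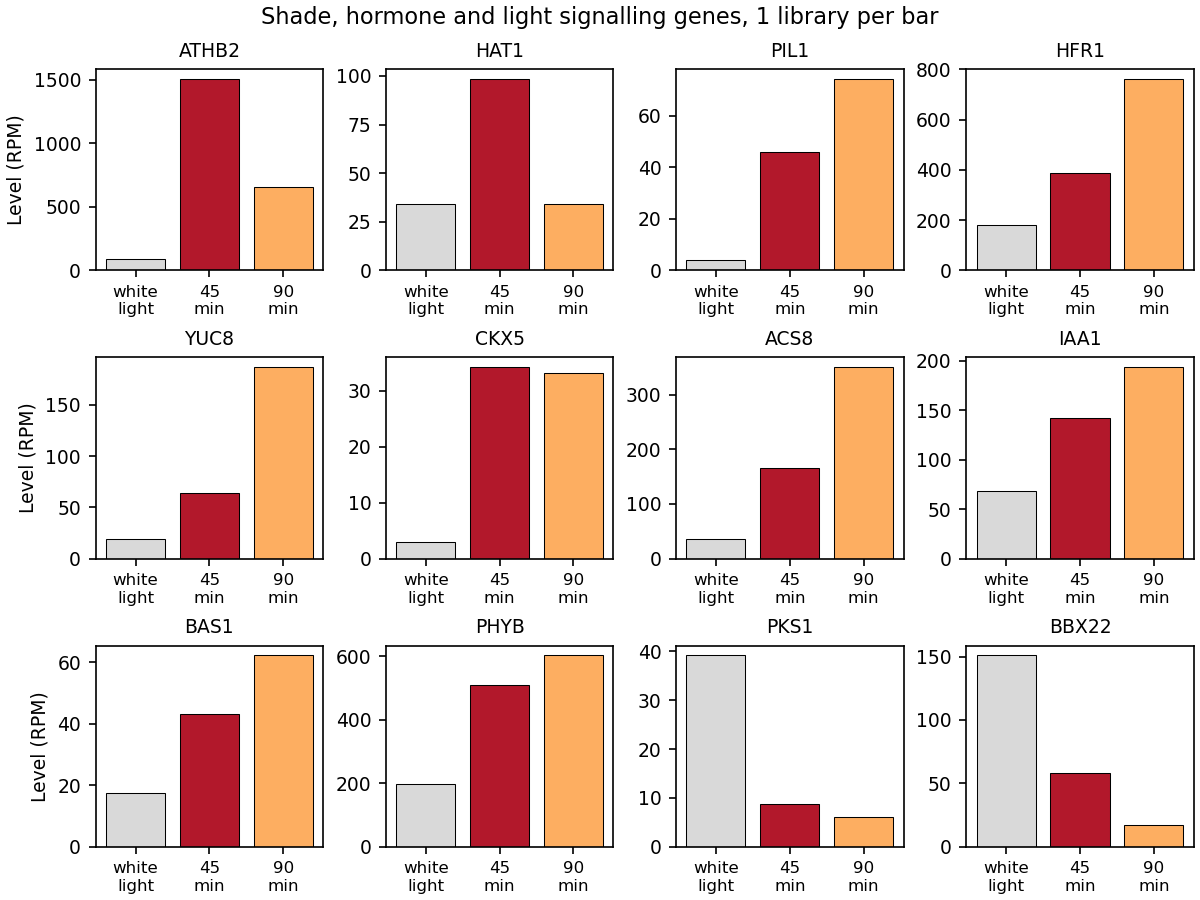
Levels (RPM, each panel with its own axis starting at 0) of 12 shade, hormone and light signalling genes in white light, after 45 min and after 90 min of far-red-enriched light, with 1 library per bar and no error bars. ATHB2 and HAT1 were highest at 45 min, PIL1, HFR1, YUC8 and ACS8 were highest at 90 min, and PKS1 and BBX22 were highest in white light.

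Some auxin genes rose and none fell past 2-fold. Of 15 auxin signalling and transport genes compared, 4 rose and 0 fell, beside 11.1% and 9.85% of all genes compared, and the median log2 ratio was 0.39. With so few members these counts set nothing apart from the other genes. Beside YUC8, the risers were the early auxin response repressor genes IAA1 and IAA14 and the response factor gene ARF1. IAA1 (AT4G14560) had 142 RPM at 45 min, against 68.6 RPM in white light, a 2.07-fold rise (1.78 to 2.42). Its windows went opposite ways, with 580 first-window reads at 45 min, against 118 in white light, and 15 second-window reads at 45 min, against 117 in white light. IAA14 (AT4G14550) had 36.4 RPM at 45 min, against 12.8 RPM in white light, a 2.84-fold rise (2.02 to 4.07), and ARF1, which overlaps another gene, was 3.14-fold higher (2.45 to 4.05). The members with the most reads were under 2-fold, with AUX1, an auxin influx carrier, at 919 RPM at 45 min, against 750 RPM in white light, and the repressor gene IAA4 at 396 RPM at 45 min, against 219 RPM in white light. GH3-2, which conjugates auxin to amino acids, was at 0.743 of its white light level (0.648 to 0.853) at 45 min, and its level at 90 min was 307 RPM, against 94.2 RPM at 45 min and 127 RPM in white light.

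Growth hormone metabolism contained further risers, named here and in the next paragraphs partly after their values were seen. Of 9 gibberellin and brassinosteroid genes, 2 rose and 0 fell, with a median log2 ratio of 0.32. Among all genes compared 11.1% rose and 9.85% fell, so with so few members these counts set nothing apart. The risers were ROT3 (AT4G36380), a P450 of brassinosteroid synthesis, at 2.42-fold (1.83 to 3.22), and BAS1 (AT2G26710), a P450 that inactivates brassinosteroids, at 2.48-fold (1.84 to 3.37). By first-window reads alone neither reached 2-fold, with log2 ratios of 0.63 for ROT3 and 0.13 for BAS1. BIN2, the kinase that restrains brassinosteroid signalling, had the most reads of this list over the 2 libraries together and stood at 592 RPM at 45 min, against 827 RPM in white light. RGA, a DELLA repressor of gibberellin responses, had 208 RPM at 45 min, against 118 RPM in white light.

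Among 7 ethylene and cytokinin genes, ACS8 and CKX5 rose and 0 fell, with a median log2 ratio of 0.68. The shares of all genes compared were 11.1% and 9.85%, so these counts too set nothing apart. ACS8 (AT4G37770) encodes a 1-aminocyclopropane-1-carboxylate synthase, which makes the ethylene precursor. It had 725 reads at 45 min, against 122 in white light, or 166 RPM at 45 min and 35.5 RPM in white light, a 4.67-fold rise (3.85 to 5.71). The 90 min level was 350 RPM. CTR1, the kinase that holds ethylene signalling in check, had 208 RPM at 45 min, against 108 RPM in white light.

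Of 9 genes for photoreceptors and light signalling, 2 rose and 2 fell, beside 11.1% and 9.85% of all genes compared. The rise with the most reads was that of PHYB (AT2G18790), the main phytochrome of the shade response, with 2225 reads at 45 min, against 684 in white light. Its level was 509 RPM at 45 min, against 199 RPM in white light, a 2.56-fold rise (2.35 to 2.79), and 604 RPM at 90 min. PHYA, the phytochrome of continuous far-red light, was at 358 RPM at 45 min and 297 RPM in white light. FAR1 and FHY3 are related transcription factors of phytochrome A signalling, and their values lay on opposite sides. FAR1 (AT4G15090) rose 2.78-fold (2.05 to 3.84), while FHY3 stood at 0.507 of its white light level (0.441 to 0.581), just short of 2-fold.

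The genes that fell were PKS1 and BBX22. PKS1 (AT2G02950), a phytochrome-binding protein, had 38 reads at 45 min, against 135 in white light, or 0.221 of the white light level (0.150 to 0.319), and it overlaps another gene. BBX22 (AT1G78600), a B-box protein that promotes light responses of seedlings, had 58.5 RPM at 45 min, against 151 RPM in white light, and 17.0 RPM at 90 min. Its 45 min level was 0.387 of that in white light (0.332 to 0.451). The wider family of B-box and CONSTANS-like genes held no other change, with 0 higher and 1 lower of 10.

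Most clock genes were read slightly less at 45 min. Of 11 compared, 0 rose and 1 fell, beside 11.1% and 9.85% of all genes compared. Their log2 ratios were below 0 for 10 of the 11, with a median of -0.23. The median of all genes compared was -0.04, so among them too more lay below 0 than above. The gene that fell was GI (AT1G22770), an evening gene that links the clock to flowering, with 229 reads at 45 min, against 393 in white light, or 0.458 of that level (0.388 to 0.541). Its first window held 100 reads at 45 min, against 91 in white light, so the fall lay outside that window. The morning genes CCA1 and LHY stood at 0.849 and 0.646 of their white light levels. RVE4, GRP7 and PRR7, with the most reads, lay between 0.855 and 0.944. Clock hour at harvest is not given in the sources used here, and its part in these values was not tested.

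Photosynthesis genes formed the largest block of reads and did not pass 2-fold. Of 13 light reaction genes, 0 rose and 0 fell, and their log2 ratios ran from -0.29 to 0.92 with a median of 0.05. All 13 had 1000 or more reads in a library, a depth at which 2.78% of genes rose and 1.75% fell. Together they held 165400 RPM at 45 min, against 138000 RPM in white light. The largest difference was in LHCB1.5 (AT2G34420), a light-harvesting protein of photosystem II, with 113637 reads at 45 min, against 47183 in white light, or 1.89 times the white light level. PSBO1, of the oxygen-evolving complex, was at 1.59 times, and PSAF, of photosystem I, at 1.41 times. LHCB3, with the most reads of the list, was at 0.955 times.

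The 6 Calvin cycle genes also all stayed within 2-fold, with a median log2 ratio of -0.11. All 6 had 1000 or more reads in a library, a depth at which 2.78% of genes rose and 1.75% fell. RBCS3B (AT5G38410), a small subunit of Rubisco, had 185387 reads at 45 min, against 154601 in white light, or 0.943 of the white light level per total. RBCS2B was at 0.733 of its white light level. Of 7 chlorophyll synthesis genes, 5 of them with 1000 or more reads in a library, 1 fell, beside 9.85% of all genes compared. It was PORA (AT5G54190), a protochlorophyllide oxidoreductase known from dark-grown seedlings, with 62 reads at 45 min, against 114 in white light. CHLH, a magnesium chelatase subunit with the most reads of that list, was at 1.21 times its white light level.

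**Figure D4:**
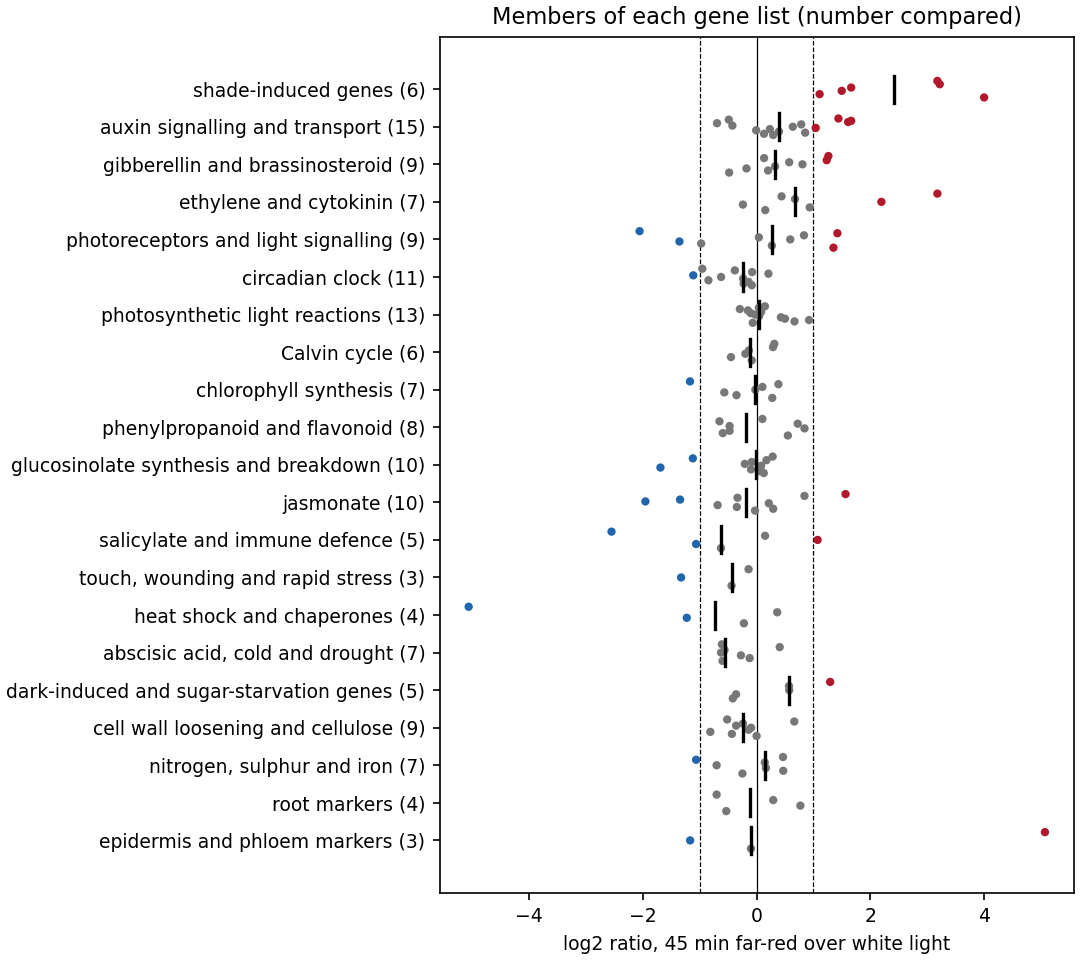
Each point is the log2 ratio, 45 min over white light, of 1 member of a gene list, with the number compared in brackets, and the thick black bar is the list's median. Red points are 2-fold or more higher, blue points 2-fold or more lower, and dashed lines mark 2-fold. The shade-induced genes all lay to the right of 1, and the photosynthetic light reactions all lay within 2-fold.

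Immune and stress genes were few in the comparison, and the medians of these lists depended on the read minimum. With a minimum of 50 reads the median of the touch and wounding genes was 0.03, against -0.44 at 100 reads, that of the heat shock genes -0.22, against -0.72, and that of the salicylate genes -0.24, against -0.62. Of 5 salicylate and immune defence genes, 1 rose and 2 fell, beside 11.1% and 9.85% of all genes compared. The median of these 5 was -0.62. PAD4 (AT3G52430), a lipase-like regulator of immunity, had 29 reads at 45 min, against 150 in white light, and 14 at 90 min, so that its 45 min level was 0.152 of that in white light (0.0985 to 0.227). GSTF6, a glutathione transferase induced in defence, was at 0.476 (0.414 to 0.546). ICS1 (AT1G74710), the isochorismate synthase of salicylate synthesis, lay the other way at 2.12-fold higher (1.80 to 2.50).

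Of 10 jasmonate genes, 1 rose and 2 fell, beside 11.1% and 9.85% of all genes compared. The repressor genes JAZ3 and JAZ12 differed in direction, with JAZ3 3.21-fold higher (2.09 to 5.08) and JAZ12, which overlaps 2 genes, at 0.243 of its white light level (0.173 to 0.335). VSP1, a storage protein gene used as a jasmonate marker, was at 0.380 (0.281 to 0.509). AOS and MYC2, an enzyme and a transcription factor of the pathway with the most reads, were at 0.981 and 1.23 times. Among 10 glucosinolate genes, too few to set apart from those shares of all genes, 2 fell and 0 rose. They were MAM1 (AT5G23010), which elongates the methionine side chain, at 0.306 (0.260 to 0.359), and BCAT4, which acts just before it, at 0.443 (0.319 to 0.611).

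Of 4 heat shock and chaperone genes, 2 fell and 0 rose, beside 9.85% lower and 11.1% higher among all genes compared. HSP17.6II (AT5G12020), a small heat shock protein, had 0 reads at 45 min, against 111 in white light, which is at least 47.0-fold lower when 3 reads are taken as the limit that a count of 0 allows. The exact interval for the same counts starts at 37.6-fold. It had 0 reads at 90 min as well. HSC70-3, a cytosolic HSP70, was at 0.426 of its white light level (0.381 to 0.475) and overlaps 2 genes. HSP101, below the minimum, had 91 reads at 45 min, against 0 in white light. The broader family of heat shock and DnaJ proteins counted 3 higher and 7 lower of 56.

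The 7 abscisic acid, cold and drought genes held no change past 2-fold. Beside a median of -0.04 for all genes compared, their median was -0.56, with 6 below 0 and 1 above. This median too depended on the reads counted. It was -0.27 with a minimum of 50 reads, of 500 reads or with no minimum, and -0.795 by first-window reads. COR15A and COR15B, members below the minimum, lay the other way. They had 85 and 89 reads at 45 min, against 46 and 22 in white light. COR47, a dehydrin, had 1828 RPM at 45 min, against 2765 RPM in white light. Of 3 touch and wounding genes, MYB44, a stress-responsive factor that overlaps 3 genes, fell to 0.395 of its white light level (0.341 to 0.458). Among 5 dark-induced and sugar-starvation genes, BGLU30 was 2.50-fold higher (1.99 to 3.16), while ASN1, an asparagine synthetase of the dark response, was at 0.779. Of 7 nitrogen, sulphur and iron genes, APR3, a sulphate assimilation enzyme, fell to 0.470 (0.373 to 0.592). Among all genes compared 11.1% rose and 9.85% fell, so with so few members the counts of these lists set nothing apart.

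Transcription factor families were grouped by words in their annotation, and their counts stand beside 11.1% higher and 9.85% lower among all genes compared. Of 28 bHLH genes, 6 rose and 2 fell, with a median of -0.01. Beside PIL1 and HFR1, the risers included AT3G21330, annotated only as a bHLH protein, with 498 reads at 45 min, against 58 in white light, a 6.75-fold rise (5.14 to 9.03). It had 180 RPM at 90 min, against 114 RPM at 45 min and 16.9 RPM in white light. BEE3 (AT1G73830), a bHLH gene of brassinosteroid-promoted growth, rose 3.03-fold (1.99 to 4.78). Of 23 homeobox genes, 5 rose and 1 fell, with a median of 0.29. Beside ATHB2 and HAT1, HB30 (AT5G15210) rose 3.18-fold (2.75 to 3.70), with 923 reads at 45 min, against 228 in white light.

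Of 49 MYB and MYB-like genes, 9 rose and 5 fell. AT1G68670 had 107 RPM at 45 min, against 12.5 RPM in white light, an 8.54-fold rise. MYB73 (AT4G37260) rose 3.10-fold (2.60 to 3.71). AP2/ERF genes counted 3 higher and 3 lower of 21, and bZIP genes 2 higher and 3 lower of 13. In the AP2/ERF family, TINY2 had 0 reads at 45 min, against 116 in white light, and CEJ1 had 170 at 45 min, against 17 in white light. Of 15 NAC genes, 2 rose and 1 fell, and RD26, a drought-responsive member, had 101 reads at 45 min, against 19 in white light.

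Larger families are given as counts, beside 11.1% higher and 9.85% lower overall. Protein kinases counted 27 higher (12.7%) and 17 lower (8.02%) of 212. Membrane transporters counted 20 higher and 24 lower of 192, F-box proteins 11 and 8 of 72, and RING and U-box ubiquitin ligases 11 and 10 of 90. Proteases counted 10 higher and 16 lower of 136, and calcium and calmodulin signalling genes 6 and 9 of 73. RNA-binding proteins and helicases counted 6 higher and 11 lower of 90. In that last family AT1G73530, an RNA recognition motif protein, had 842 reads at 45 min, against 58 in white light, an 11.4-fold rise (8.75 to 15.2), and only 22 reads at 90 min.

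Smaller families also stand beside 11.1% higher and 9.85% lower among all genes compared, and with so few members their counts set nothing apart. Among them, peroxidases counted 4 higher and 1 lower of 22, glutathione transferases 0 and 2 of 10, and WRKY factors 1 and 3 of 11. WRKY3 (AT2G03340), a defence-related factor, fell to 0.218 of its white light level (0.177 to 0.267), with 122 reads at 45 min, against 441 in white light. Disease resistance genes counted 0 higher and 1 lower of 22, protein phosphatases 5 and 5 of 58, glycosyl transferases and hydrolases 7 and 6 of 66, and pentatricopeptide repeat proteins 5 and 6 of 31. Of 8 phenylpropanoid and flavonoid genes, 0 rose and 0 fell, and CCOAOMT1, a lignin enzyme with the most reads, was at 1.46 times its white light level.

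Cytosolic ribosomal protein genes fell about as often as all genes compared when depth is left aside. Of 40 such genes, 0 rose and 4 fell (10.0%), beside 11.1% higher and 9.85% lower among all genes, with a median of -0.24. Of the 40, 16 had 1000 or more reads in a library, a depth at which only 1.75% of genes fell, so the shares are not fully alike. RPS15A was at 0.350 of its white light level (0.311 to 0.393), AT2G43460, a ribosomal protein L38 gene, at 0.391 (0.351 to 0.434), and RPL18 (AT3G05590) at 0.449 (0.423 to 0.476). Ribosomal protein genes come in near-identical copies, whose reads the authors' counting could have split. Of 59 translation factor and tRNA synthetase genes, 8 rose and 3 fell. EIF4B2 (AT1G13020), an initiation factor, had 350 reads at 45 min, against 46 in white light, a 5.98-fold rise (4.39 to 8.33).

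Wall genes named for growth stayed within 2-fold. Of 9 expansin, xyloglucan and cellulose genes, 0 rose and 0 fell, beside 11.1% and 9.85% of all genes compared. Their log2 ratios ran from -0.81 to 0.66 with a median of -0.24, and 7 of the 9 were below 0. The median of all genes compared was -0.04. CESA6, a cellulose synthase, had 740 RPM at 45 min and 739 RPM in white light. Of 23 pectin-modifying enzymes, 3 rose and 2 fell, among them the pectinesterase gene AT3G10720, which rose 2.37-fold (2.09 to 2.69) with 1030 reads at 45 min, against 342 in white light. Of 38 cytochrome P450 genes, 8 rose and 4 fell. CYP707A1 (AT4G19230), which breaks down abscisic acid, rose 3.45-fold (2.61 to 4.62), although its second windows held 1 read at 45 min, against 23 in white light.

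Genes with 1000 or more reads in a library are the ones whose level is measured best. Of these 684 genes, 19 rose (2.78%) and 12 fell (1.75%). Behind ATHB2, the largest rise was that of AT3G57890, annotated as a tubulin binding cofactor, with 3523 reads at 45 min, against 634 in white light, 4.37-fold higher (4.02 to 4.76). Its 90 min level was 248 RPM, against 806 RPM at 45 min and 184 RPM in white light. AT5G02540, a short-chain dehydrogenase or reductase gene, had 1059 RPM at 45 min, against 269 RPM in white light, 3.93-fold higher (3.66 to 4.22). It stood at 2716 RPM at 90 min.

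AT1G73480, of the alpha/beta fold hydrolases, rose 3.30-fold (2.94 to 3.71), and AT5G12050, which the table leaves without a description, rose 2.91-fold (2.76 to 3.07). By its first window alone AT5G12050 had a log2 ratio of 0.85, under 2-fold. AT5G11420, annotated only as an expressed protein, was the riser with the most reads, 23610 at 45 min, against 6065 in white light, 3.06-fold higher (2.98 to 3.15). NIT1 (AT3G44310), a nitrilase, rose 2.47-fold (2.26 to 2.70). JAL34 (AT3G16460), a jacalin-type lectin that overlaps another gene, had 8562 reads at 45 min, against 3021 in white light, and rose 2.23-fold (2.14 to 2.32).

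The deeply read genes that fell did so by less. The largest fall was that of AT2G22660, a gene with a domain of unknown function, with 475 reads at 45 min, against 1076 in white light, 0.347 of the white light level (0.311 to 0.387). CAM3 (AT3G56800), which encodes calmodulin, a calcium sensor, had 146 RPM at 45 min, against 377 RPM in white light, or 0.387 of that level (0.352 to 0.426). CAM3 belongs to a family of near-identical calmodulin genes, so its reads are uncertain. AT4G33550, a lipid transfer type protein, stood at 0.392 (0.355 to 0.433) and LRX1 (AT1G12040), a leucine-rich extensin of root hair walls, at 0.432 (0.398 to 0.469). AT5G28050, annotated as a deaminase, was at 0.454 and AT1G32160, annotated as an expressed protein, at 0.455. At 90 min LRX1 had 179 RPM, below its 206 RPM at 45 min, while AT2G22660, CAM3 and AT4G33550 lay between their 45 min and white light levels.

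**Figure D5:**
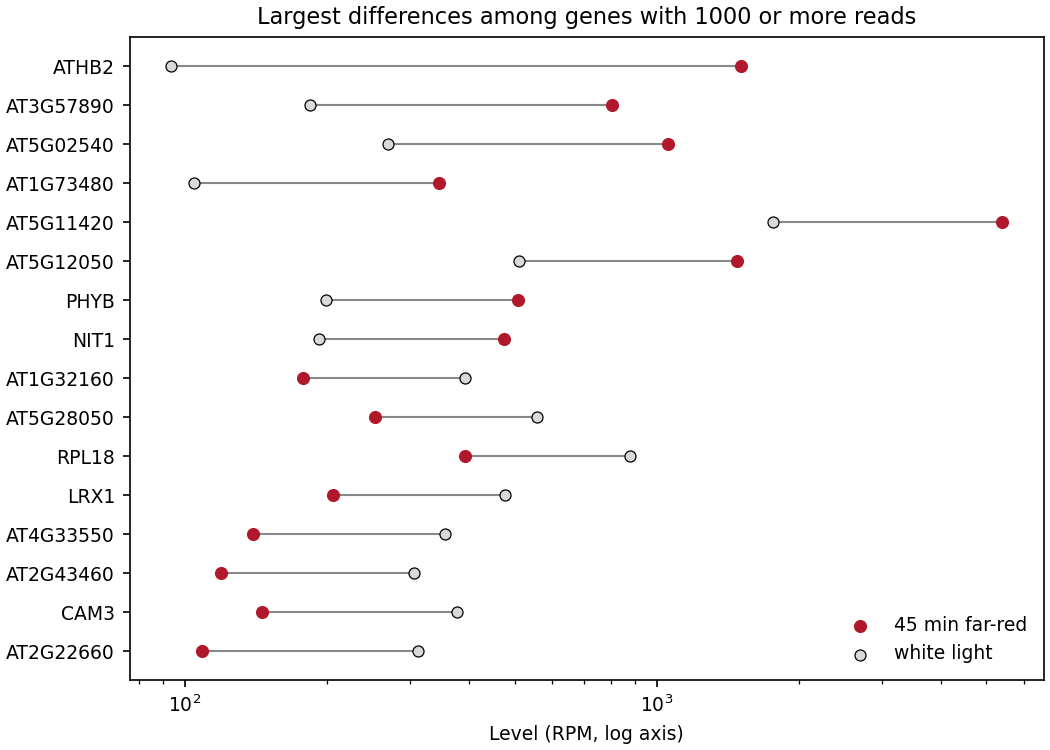
Levels (RPM, log axis) at 45 min (red) and in white light (grey) of the 8 largest rises and 8 largest falls among genes with 1000 or more reads in a library, 1 library per point. ATHB2 moved most, with 1509 RPM at 45 min, against 93.6 RPM in white light, and the largest fall was that of AT2G22660, with 109 RPM at 45 min, against 313 RPM in white light.

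The largest ratios of all came from genes near the read minimum. Of the 12 largest rises, 4 had 0 reads in white light. APL (AT1G79430), a MYB-type factor of phloem identity, had 142 reads at 45 min, against 0 in white light, and 108 at 90 min, which is at least 37.2-fold higher at 45 min with 3 reads as the limit of a count of 0. That limit takes the other library's count as it stands, and the exact 95% interval, which does not, starts at 29.9-fold for APL. AT1G72175, a zinc finger gene of the C3HC4 type, and 5PTASE13 (AT1G05630), an inositol phosphatase, had 114 and 113 reads at 45 min, against 0 in white light for both, at least 29.9-fold and 29.6-fold higher by that limit, with intervals from 23.9 and 23.7. ROPGEF5 (AT5G05940), an exchange factor for ROP GTPases, had 107 reads at 45 min, against 0 in white light, at least 28.1-fold higher by that limit with an interval from 22.4, and 3 reads at 90 min.

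Of the other 8, 7 had a single read in white light, which leaves the ratio poorly bounded. RBL14 (AT3G17611), a rhomboid-like gene that overlaps another gene, had 165 reads at 45 min, against 1 in white light, a ratio of 130 with an interval from 23.0 to 5157. AT3G57540, a remorin, and AT1G17520, a single-MYB histone gene, had 125 and 120 reads at 45 min, against 1 in white light for both. AT1G17520 overlaps another gene. AT2G44020, of the mitochondrial transcription termination factor family, AT4G12670 and the F-box gene PP2-A15 had between 115 and 119 at 45 min, against 1 in white light for each. ELP2 (AT1G49540), a subunit of the Elongator complex that overlaps 2 genes, had 132 at 45 min, against 1 in white light. AT5G12440, an RNA-binding zinc finger gene that overlaps another, had 213 reads at 45 min, against 4 in white light.

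Among the 12 largest falls, 3 genes had 0 reads at 45 min. TINY2 (AT5G11590), an AP2/ERF factor of the DREB type, was at least 49.2-fold lower by the limit of 3 reads with an interval from 39.3, and its 90 min library held 2 reads. HSP17.6II has been given above, and AT4G25070, an expressed protein, had 0 reads at 45 min, against 103 in white light, at least 43.6-fold lower with an interval from 34.9. ATG10 (AT3G07525), an autophagy gene that overlaps another gene, had 1 read at 45 min, against 100 in white light, and 71 at 90 min. AT5G06830, annotated as CDK5RAP3, overlaps another gene. It had the most reads of these genes, 26 at 45 min, against 314 in white light. Its white light level was 15.4 times that at 45 min (10.3 to 23.9).

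The remaining 7 falls lay between 4 and 19 reads at 45 min, against 101 to 182 in white light. They comprise AT4G36550, the AP2/ERF gene AT1G80690, the zinc knuckle gene AT3G02820, the dehalogenase-type hydrolase gene AT5G44730, AT1G20460, AT5G10110 and AT4G00040. The last is annotated as a stilbene synthase, a class related to chalcone synthase. AT1G20460 and AT4G00040 had 0 reads at 90 min, while AT1G80690 had 68 and AT5G10110 had 62. AT5G44730 and AT1G20460 each overlap another gene.

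The labelled tissue, whole seedlings, was checked against markers of its parts. Leaf genes were abundant in both libraries, with 36348 unscaled reads of RCA, the Rubisco activase, at 45 min, against 32745 in white light. Scaled to the library totals, RCA was lower at 45 min, while PSBO1, another leaf gene, was higher, as given above. The root glucosidase PYK10 (AT3G09260) had 6834 RPM at 45 min, against 9884 RPM in white light. The 4 root markers together summed to 7563 RPM at 45 min, against 10480 RPM in white light, and most of that sum was PYK10. Their log2 ratios ran from -0.70 to 0.77 with a median of -0.12, 2 above 0 and 2 below. Of the 4, 0 changed past 2-fold and 0 were at 0 reads. ATML1, an epidermal factor, had 219 RPM at 45 min and 234 RPM in white light, while CER1, a wax synthesis gene of the epidermis, was at 0.440 of its white light level (0.365 to 0.529). Of the 3 epidermis and phloem markers, which summed to 293 RPM at 45 min, against 330 RPM in white light, APL alone was at 0 in a library. In such bulk samples fewer cells of a type and less RNA per cell cannot be told apart, and the part of tissue make-up in the results was not tested.

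The 90 min library shared the white light control, so its counts are given only side by side. Against white light, 743 genes were higher at 90 min (13.9%) and 579 lower (10.8%) of 5346 compared. Against 45 min, 401 genes were higher at 90 min (7.41%) and 346 lower (6.39%) of 5412. Of the compared genes, 1703 (32.1%) overlapped another annotated gene, and so did 194 of the risers (32.9%) and 160 of the genes that fell (30.6%).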

How the data were processed

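Total RNA of whole seedlings was made into PEAT libraries, 1 per condition, per the labels' protocols. The submitters' processing notes name FastQC, cutadapt, HISAT2 2.0.5, SAMtools 0.1.19 and bedtools 2.17.0 and the builds TAIR9 and TAIR10; their roles, the strand setting and the rule by which transcripts entered the table are not given in the sources used here. The authors deposited raw read counts per transcript and per start window, per the file headers. The table is a selection of transcripts, so its totals (4373900 reads at 45 min, 3440656 in white light and 4125024 at 90 min) are not the library depth.

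From these, 1 transcript per gene was kept, the one with the most reads over the 3 libraries and, in ties, the lowest isoform number. RPM and log2 ratios with a pseudocount of 1 RPM were computed with Python 3.11.15, pandas 2.3.3, numpy 2.4.6 and scipy 1.17.1 from the deposited counts, and figures were drawn with matplotlib 3.10.9. The ratio and interval code was tested on simulated data. With 1 library per group there is no test and no p-value. Intervals are Clopper-Pearson at 95%, and a count of 0 was bounded at 3 reads. Coordinates are not printed; symbols and overlapping neighbours came from RefSeq on assembly TAIR10.1, which matched 6799 of 6814 genes. The annotation words used for the families are those of the deposited table, many in the style of rice gene descriptions, and of RefSeq symbols, so families hold some members by name only.

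Named were the shade-induced genes, the 12 largest rises and falls, the 8 largest of each among genes with 1000 or more reads and up to 4 members per list with the most reads; other members were named after their values were seen. All members and lists were chosen with earlier results of these data known, and the family definitions were reworked after values were seen.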

Additional observations from a re-analysis of the deposited data

How the results depend on the processing

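No paired analysis was possible because there is 1 library per condition, so leaving out replicates could not be done either. The number of genes higher at 45 min (590) became 64 with a minimum of 500 reads (1596 genes), 961 with no minimum, 1059 by first-window reads only, 1115 at 1.5-fold and 161 at 4-fold. It became 391 without genes that overlap another annotated gene (3595 genes), an alternative chosen after seeing the data. The number lower (523) became 60 with 500 reads, 1016 by first-window reads only, 828 by first- and second-window reads, 1187 at 1.5-fold and 79 at 4-fold. Fewer or more genes compared, fewer reads per gene and the threshold itself are what these settings change; the cause of the window counts was not tested. The median log2 ratio of the shade-induced genes (2.42) was 1.90 with a pseudocount of 5 RPM, 1.58 with no minimum, 3.43 by both kinds of window and 1.66 without overlapping genes, and above 0 in each. The other 33 of 48 such values, among them those with median-of-ratios scaling (621 higher, 483 lower) and without the 10 most read genes (612 and 500), stayed within 1.5 times their count or within the counting intervals of the list's members. For the 45 genes named by the fixed rule, 397 of 458 values stayed within the gene's counting interval and 61 moved outside it. None changed sign. Settings that only change the read minimum or leave genes out cannot alter a gene's own ratio, so their values stayed by construction. Most of these genes were also picked for the size of their ratios, so the unchanged signs are no check on them. HFR1 and AT5G12050 dropped under 2-fold, HFR1 to 0.65 by first-window reads and 0.96 by both kinds of window, and AT5G12050 to 0.85 by first-window reads. Other genes named in the report were not run under the alternatives apart from their windows, and of 33 list members past 2-fold, 8 were under it by first-window reads and 1, IAA1, had second windows 2-fold the other way. Of 219 list medians over 20 lists 45 moved, and 9 lists changed sign under at least 1 alternative. The touch and wounding median (-0.44) was 0.03 with 50 reads and 0.20 with no minimum, and that of photoreceptors and light signalling (0.27) was -0.35 with 500 reads and -0.05 by first-window reads. Depth limits genes near 100 reads most.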

Other observations

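Some genes below the read minimum differed widely between the libraries, and they too were chosen after their values were seen. HSP101, a heat shock protein of the ClpB type, had 91 reads at 45 min, against 0 in white light, and 40 at 90 min. LOX4, a lipoxygenase of jasmonate synthesis, had 96 reads at 45 min, against 2 in white light, and 70 at 90 min. ERF105, a stress-responsive AP2/ERF gene, had 47 at 45 min, against 2 in white light, and 55 at 90 min. CYP79F1, a P450 of aliphatic glucosinolate synthesis, had 44 at 45 min, against 1 in white light, and 166 at 90 min. JAZ7, a jasmonate repressor, lay the other way, with 0 reads at 45 min, against 31 in white light, and 89 at 90 min.

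PIF3 and PIF7, bHLH factors that act in shade and in darkness, also stayed below the minimum. PIF3 had 86 reads in both the 45 min and the white light library, and PIF7 had 62 reads at 45 min, against 46 in white light.

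Some families held members with large contrasts on both sides, chosen after their values were seen. SUC5, a sucrose transporter, had 104 reads at 45 min, against 1 in white light, while AT2G16980, of the major facilitator family, had 29 at 45 min, against 145 in white light. LPA66, a pentatricopeptide repeat protein of chloroplast RNA editing, had 391 reads at 45 min, against 38 in white light, and CRR21, another of that class, had 115 at 45 min, against 363 in white light. UGT74E2, a glucosyl transferase, had 13 reads at 45 min, against 109 in white light, all but 1 of them outside the first window. FEI2, a receptor-like kinase, had 412 reads at 45 min, against 21 in white light, and 434 at 90 min.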
